A study of Mus musculus with 4 samples.

Results

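The genes of polyamine synthesis, polyamine breakdown and methionine salvage were followed in mouse liver. They were chosen by name from the known pathway as 10 genes, Odc1, Amd1, Srm, Sms, Sat1, Smox, Mtap, Mri1, Adi1 and Enoph1, and each was read from the transcript row that names it alone. Such a row was found for 8 of the 10, among 22180 genes measured in all. Amd1 was not analysed here, and Sms shares its row with the pseudogene Sms-ps, so that row is given apart from the others. Each of the 8 genes has 1 row, so the choice of the brightest row per gene did not affect them.

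Male C57BL/6J mice, an inbred wild-type strain, were 6 weeks old when they were allotted to a normal diet or to the MCD diet, which lacks methionine and choline, and they ate it for 20 weeks. Each diet is represented by 2 liver RNA samples, each on its own Mouse Gene 2.1 ST array, so 4 arrays were compared. The labels do not say whether the normal diet was a purified diet matched to the MCD diet, nor whether a sample is 1 animal. The p-values therefore measure the spread between these samples, which may be technical, and the number of arrays limits the precision. The array medians lay between 2.57 and 2.65 on the log2 scale and the brightest row of each array between 12.07 and 12.13. Of 9 measured hepatocyte markers 9 lay above the median normal diet signal, with Alb at 11.93 to 12.04.

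Polyamines (putrescine, spermidine and spermine) are small cations that bind nucleic acids and support translation and growth. Ornithine decarboxylase makes putrescine from ornithine, and the synthases of spermidine and spermine then add aminopropyl groups that come from S-adenosylmethionine, the product of methionine. Every such step leaves methylthioadenosine, which the methionine salvage pathway turns back into methionine, so polyamine synthesis and methionine economy are linked, and the liver is the main organ of methionine use.

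In MCD diet livers the transcripts of Sat1 and Smox, an acetyltransferase and an oxidase that act in the breakdown of spermidine and spermine, rose by 1.04 ± 0.19 and 0.91 ± 0.14 on the log2 scale. Each ± gives the SE of a log2 difference, taken as MCD diet minus normal diet, with n = 2 arrays per diet. The salvage enzyme Adi1 fell by 0.55 ± 0.12. The synthetic genes Odc1 and Srm and the salvage genes Mtap, Mri1 and Enoph1 were not called. A gene was called where limma's p, adjusted by Benjamini-Hochberg over all 22180 genes, was under 0.05. Thus 3 of the 8 measured genes were called, 2 higher and 1 lower, against 9.98% of all genes called (6.37% higher and 3.62% lower). Genes in the brighter 50% by mean signal were called more often, at 18.1%, and 7 of the 8 lie there, Smox being the exception. The genes were not picked blind to these data, so their share beside that of all genes is a description with no test. The median difference of the 8 was 0.32, beside -0.03 over all genes, and 7 of the 8 differences were positive. Leaving out normal diet replicate 2, or MCD diet replicate 1, lost every call among the 8. Fewer of all genes were called in each fit that lacks an array, so lost calls were not limited to these genes. The median difference of the 8 was 0.198 to 0.56 over the 4 fits that lack an array. It was lowest without MCD diet replicate 1 and highest without MCD diet replicate 2. For 5 of the 8 genes no array of one diet lay within the range of the other, 4 of them higher and 1 lower under the MCD diet. This compares with 54.2% of all genes (25.0% higher and 29.2% lower), a share near that background. At an unadjusted p under 0.05 stood 4 of the 8 genes, against 24.2% of all genes.

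**Figure D1:**
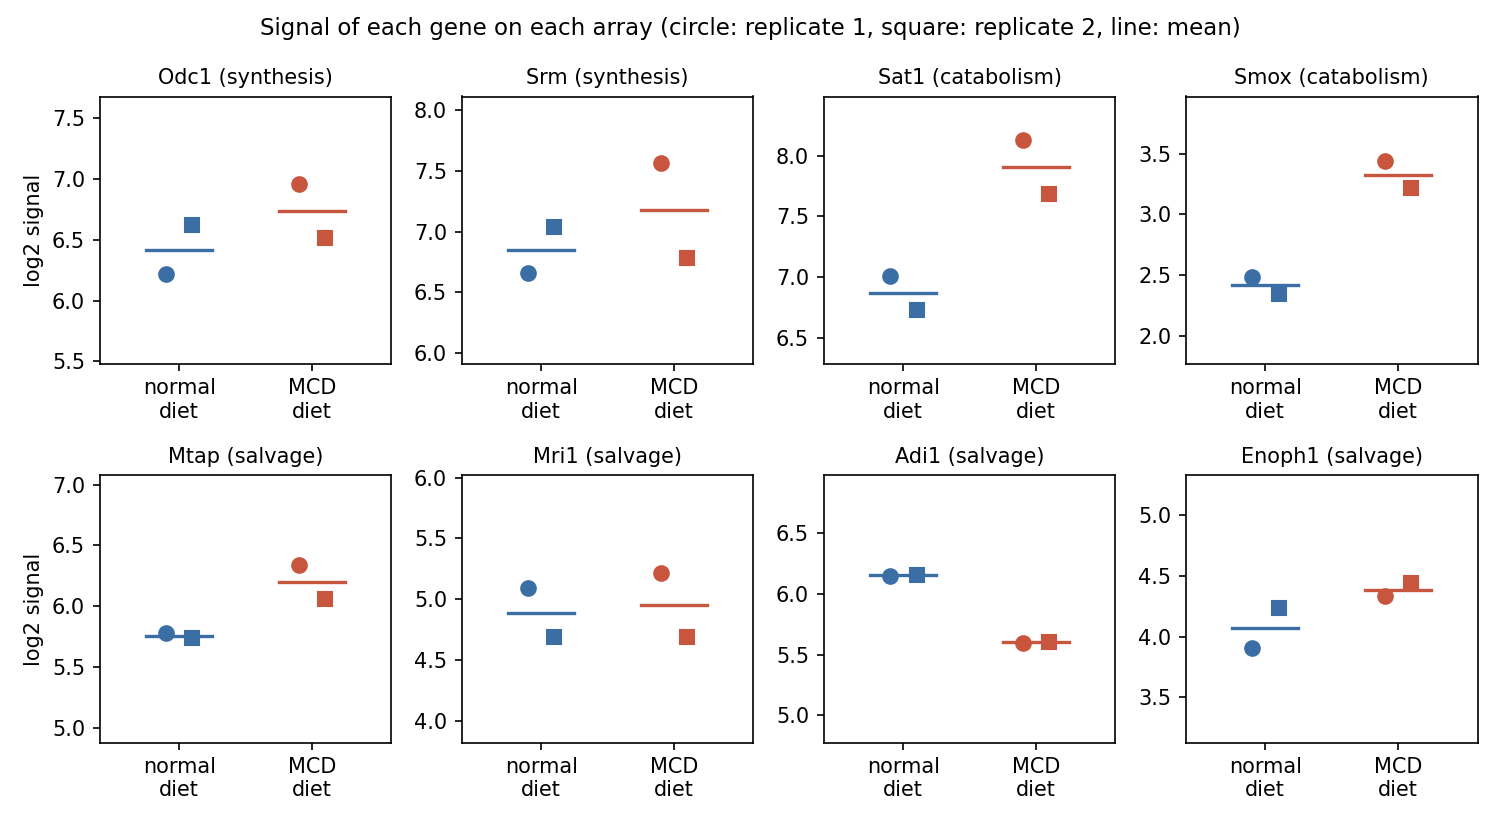
Deposited log2 signal (y axis, same span in every panel) of the 8 measured genes on the 4 arrays, normal diet in blue and MCD diet in red, with the mean of each diet as a line. Sat1, Smox, Mtap, Adi1 and Enoph1 show no overlap between the diets, while the arrays of Odc1, Srm and Mri1 overlap.

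Both catabolic genes among the 10 were called. Sat2 (-0.32) and Aoc1 (0.04), on the companion list of other polyamine steps, were not, and Paox was not analysed here. Sat1 encodes the spermidine/spermine acetyltransferase, the rate-limiting step of polyamine breakdown, whose acetylated products leave the cell or are oxidised. Its log2 signal was 7.01 and 6.73 under the normal diet against 8.13 and 7.68 under the MCD diet. Both MCD diet arrays were above both normal diet arrays, and the gap between the diets was wider than the gap between arrays of either diet. The rise of 1.04 ± 0.19 corresponds to 2.05-fold (limma adjusted p = 0.0242), with a 95% interval of 0.57 to 1.5. Only 4.95% of all genes differed by more in either direction. The call was lost without normal diet replicate 2 (0.90, limma adjusted p = 0.109) and without MCD diet replicate 1 (0.82, limma adjusted p = 0.0895), and it held without either of the others.

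Smox encodes spermine oxidase, which turns spermine back into spermidine and releases hydrogen peroxide and an aldehyde. Its signal was 2.49 and 2.34 under the normal diet against 3.44 and 3.21 under the MCD diet. The MCD diet arrays were again both higher, but the gene was dim, with a normal diet mean at the 35.9th percentile of all genes. Whether it lay above background in normal diet livers is not known, since no detection values were analysed here, so the size of its rise is uncertain. The difference of 0.91 ± 0.14 corresponds to 1.88-fold (limma adjusted p = 0.0134; 95% interval 0.57 to 1.25). As for Sat1, the call did not hold when normal diet replicate 2 was left out (0.84, limma adjusted p = 0.0714) or when MCD diet replicate 1 was (0.80, limma adjusted p = 0.0674).

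Sat1 and Smox were higher together, and Odc1, the gene of the entry step to synthesis, was not called, so the bases ahead of their starts are shown for comparison. The sequences are the 250 bases before the RefSeq start on build GRCm38.p6, read 5′ to 3′ in the direction of the gene, with motif matches in capitals. RefSeq windows were found for 8 of the 10 genes and not for Srm and Adi1. The Sat1 window is chrX:155216450-155216699 on the minus strand, the Smox window chr2:131491612-131491861 on the plus strand and the Odc1 window chr12:17544623-17544872 on the plus strand.
Sat1: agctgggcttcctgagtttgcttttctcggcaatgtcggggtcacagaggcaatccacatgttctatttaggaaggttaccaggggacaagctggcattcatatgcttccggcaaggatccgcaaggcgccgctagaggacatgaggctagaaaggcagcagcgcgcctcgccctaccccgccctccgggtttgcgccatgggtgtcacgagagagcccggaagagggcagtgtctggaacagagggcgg
Smox: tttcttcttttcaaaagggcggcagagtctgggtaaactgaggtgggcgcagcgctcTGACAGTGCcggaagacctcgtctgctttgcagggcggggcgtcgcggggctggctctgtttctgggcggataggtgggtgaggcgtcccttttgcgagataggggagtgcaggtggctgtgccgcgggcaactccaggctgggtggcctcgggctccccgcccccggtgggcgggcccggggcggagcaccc
Odc1: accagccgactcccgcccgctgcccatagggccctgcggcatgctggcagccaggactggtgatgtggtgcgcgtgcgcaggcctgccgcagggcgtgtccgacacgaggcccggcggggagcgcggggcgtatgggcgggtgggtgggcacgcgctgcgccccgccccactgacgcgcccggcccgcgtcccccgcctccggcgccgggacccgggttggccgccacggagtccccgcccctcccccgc
The motifs searched, on both strands, were the E-box CACGTG bound by MYC and its relatives, the amino acid response core TGATGNAA, the antioxidant response core TGACNNNGC, TATAAA and CCAAT. Smox had 1 match, to the antioxidant response core, at positions -193 to -185 relative to its start, a motif present in 10.2% of the 32851 promoter windows of this length. Sat1 and Odc1 had 0 matches to any of the 5 motifs in this window. The E-box, present in 6.02% of all windows, was matched among the 8 genes with a window only in 1 of the 2 windows of Sms. Srm and Adi1 were not searched. The Odc1 window is rich in G and C at 80.0%, against 59.6% for Sat1, 68.0% for Smox and a median of 52.4% over all windows. The windows of Sat1 and Smox thus share none of these motifs, and a match or its absence is a description of these letters alone.

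The synthetic arm was less regular across arrays. Odc1, the rate-limiting decarboxylase of ornithine, had signals of 6.22 and 6.62 under the normal diet against 6.96 and 6.52 under the MCD diet. The lower MCD diet array lay below the higher normal diet array, so the groups overlapped. The difference of 0.32 ± 0.21 did not pass (limma adjusted p = 0.422), and its 95% interval of -0.19 to 0.83 includes both no difference and a rise close to that of Smox. Srm, the spermidine synthase, followed the same order of arrays, at 6.66 and 7.04 under the normal diet against 7.57 and 6.78 under the MCD diet. MCD diet replicate 1 was the highest array for both genes, and normal diet replicate 1 the lowest. The difference of Srm was 0.33 ± 0.28 (limma adjusted p = 0.545; 95% interval -0.35 to 0.999), and without MCD diet replicate 1 it was -0.07. The row shared by the spermine synthase gene Sms and Sms-ps was dim, at 3.60 and 3.27 under the normal diet against 3.52 and 3.12 under the MCD diet. Its arrays overlapped and its difference of -0.11 ± 0.19 was not called (limma adjusted p = 0.785; 95% interval -0.57 to 0.35), nor can the row tell the gene from the pseudogene.

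Whether Sat1 and Smox changed unequally to Odc1 and Srm was read from their ratio within each array, over the 4 pairs. Sat1 and Smox were both called higher, so the pairs do not stand for breakdown as a whole. Sat2 (-0.32) and Aoc1 (0.04) were not paired, and their differences lay below those of Odc1 (0.32) and Srm (0.33). The log2 ratio of Sat1 to Odc1 was higher in MCD diet livers by 0.72, and that of Sat1 to Srm by 0.71. The ratio of Smox to Odc1 was higher by 0.59 and that of Smox to Srm by 0.58. In all 4 pairs both MCD diet arrays lay above both normal diet arrays, by as little as 0.04 for Smox to Srm and as much as 0.37 for Sat1 to Odc1. The pairs share genes and arrays, so they are not separate results, and Sat1 and Smox each separate the diets alone. With 2 arrays against 2 the exact two-sided permutation test cannot go below p = 0.333, which is its value here, so an unequal change of the arms is not established by it.

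**Figure D2:**
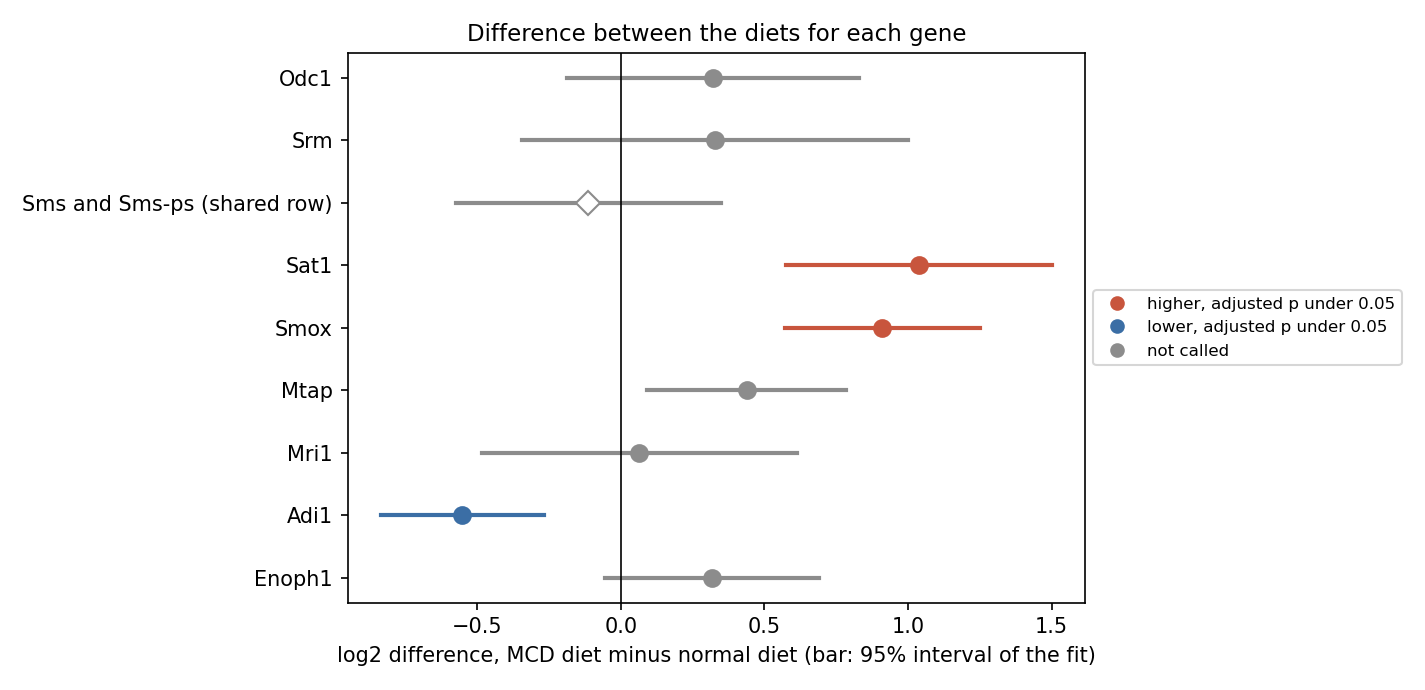
Log2 difference between the diets (x axis) with its 95% interval from the limma fit for each measured gene and for the row shared by Sms and Sms-ps (open diamond). Sat1 and Smox lie right of 0 and Adi1 left of it, while the intervals of Odc1, Srm, Mri1, Enoph1 and the shared row cross 0; that of Mtap does not, but its adjusted p is above the threshold.

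Of the 4 measured genes of methionine salvage 1 fell and 0 rose, and the other 3 were not called. All 4 lie in the brighter 50% of genes, of which 18.1% were called, and 3.62% of all genes were called lower. With 4 genes, 1 call cannot be told apart from that background. Mtap encodes the phosphorylase that splits methylthioadenosine, the first step. Its signals were 5.78 and 5.73 under the normal diet against 6.34 and 6.06 under the MCD diet. Both MCD diet arrays were higher and the normal diet pair agreed closely. The difference of 0.44 ± 0.14 had an unadjusted p of 0.0210 and did not pass after adjustment (limma adjusted p = 0.122).

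Mri1, the isomerase of the next step, had signals of 5.09 and 4.69 under the normal diet against 5.22 and 4.69 under the MCD diet. Replicate 1 was the higher array within each diet, and the lower values of the 2 diets were identical to the last deposited digit, which happens between some arrays for 0.622% of genes. The difference was 0.06 ± 0.22 (limma adjusted p = 0.908), with a 95% interval of -0.48 to 0.61, and 79.4% of all genes differed by more.

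Enoph1, the enolase-phosphatase that follows the dehydratase Apip, had signals of 3.90 and 4.23 under the normal diet against 4.33 and 4.44 under the MCD diet. The MCD diet arrays were higher by a narrow margin. The difference of 0.32 ± 0.15 was not called (limma adjusted p = 0.278; 95% interval -0.06 to 0.69). After quantile normalization of the arrays it was 0.14 (limma adjusted p = 0.696), so its size depends on the scaling.

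Adi1, the acireductone dioxygenase of the step before the final transamination, was the gene that fell. Its signals were 6.14 and 6.16 under the normal diet against 5.59 and 5.6 under the MCD diet. Arrays of one diet differed by at most 0.01, and the diets were clearly apart. The fall of 0.55 ± 0.12 left 1.47-fold less signal (limma adjusted p = 0.0374; 95% interval -0.83 to -0.27). It lies near the smallest difference called for any gene, 0.50, and the call was lost without any 1 of the 4 arrays (limma adjusted p = 0.113 to 0.151) and with an intensity trend in the moderation (limma adjusted p = 0.0531), while the difference stayed between -0.62 and -0.51. Within an array the log2 ratio of Mtap to Adi1 was higher in MCD diet livers by 0.99, with 0.82 between the nearest arrays of the 2 diets. This pair holds the most positive and the most negative difference among the 4 salvage genes, so its ratio is given as a description with no test.

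**Figure D3:**
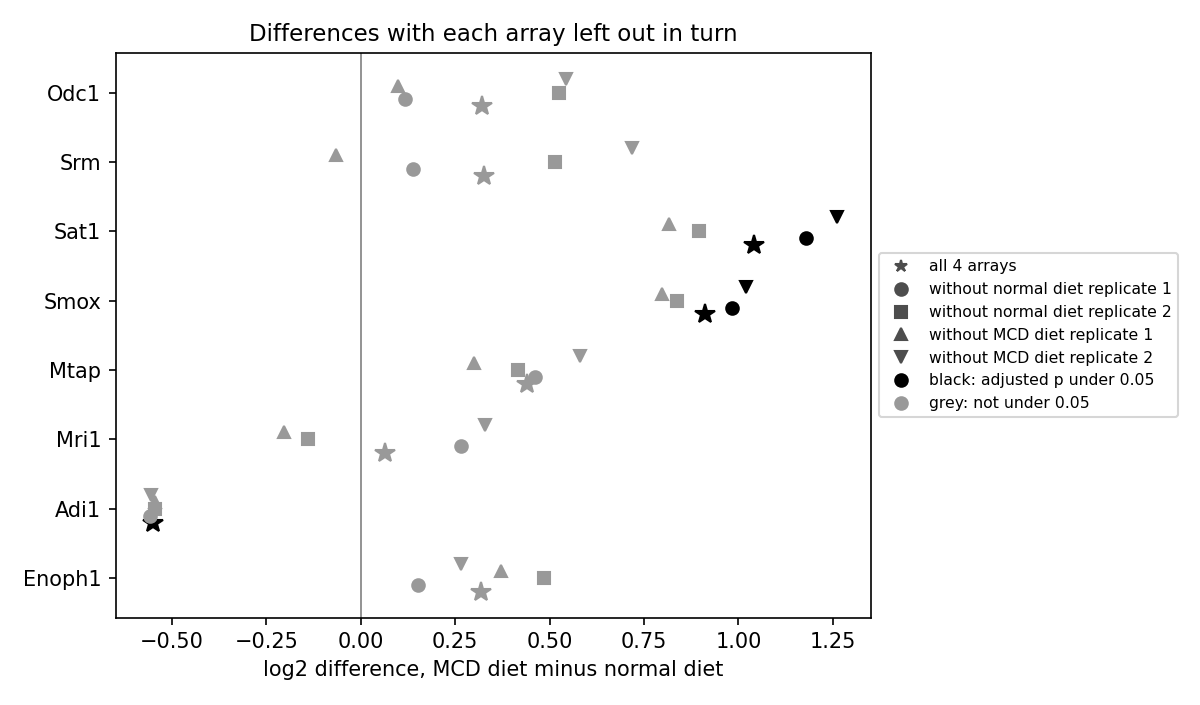
Log2 difference between the diets (x axis) for each measured gene with all 4 arrays (star) and with each array left out in turn, black where the limma adjusted p is under 0.05. Sat1 and Smox stay between 0.80 and 1.26 and lose the call when normal diet replicate 2 or MCD diet replicate 1 is absent, and Adi1 stays at the same place but is called only with all 4 arrays.

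Of 5 further salvage genes that were measured (Apip and aminotransferases that can act in the last step), 0 rose and 1 fell, with a median difference of -0.64. All 5 lie above the median normal diet signal, and 1 of 5 is a share near the 18.1% called among brighter genes. All 5 differences were negative. At an unadjusted limma p under 0.05 stood 4 of the 5, 0 of them higher, against 24.2% of all genes. The cytosolic aspartate aminotransferase Got1 fell by 0.79 ± 0.13 (limma adjusted p = 0.0174), a call lost without either normal diet array or without MCD diet replicate 1 (limma adjusted p = 0.0609 to 0.0879). Apip, whose enzyme acts between Mri1 and Enoph1, had signals of 5.23 and 5.18 under the normal diet against 4.8 and 4.61 under the MCD diet. Both MCD diet arrays were lower, and the difference of -0.50 ± 0.13 was not called (limma adjusted p = 0.0671), although it passed after quantile normalization of the arrays (limma adjusted p = 0.0254).

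Regulators and transporters of polyamines showed 0 calls among 11 measured genes in limma, with 3 at an unadjusted p under 0.05 and a median of -0.18. Over all genes the shares were 9.98% called and 24.2% at an unadjusted p under 0.05. Antizyme, encoded by Oaz1, binds ornithine decarboxylase and sends it to degradation when polyamines are plentiful. The row naming Oaz1 alone was dim, at 3.05 and 2.83 under the normal diet against 2.48 and 2.49 under the MCD diet, and its difference of -0.46 ± 0.13 was not called (limma adjusted p = 0.0907). A bright row shared by Oaz1 and the pseudogene Oaz1-ps read 9.51 and 9.34 under the normal diet against 8.70 and 8.59 under the MCD diet. This shared row was lower by 0.78 ± 0.13 on the log2 scale (-0.78; limma adjusted p = 0.0178 in the fit that adds rows naming several genes), and of the 4 fits that leave out an array only the one without normal diet replicate 2 kept the call (limma adjusted p = 0.04996; 0.0665 to 0.0799 in the others). Azin1, the antizyme inhibitor, had signals of 7.69 and 7.61 under the normal diet against 7.11 and 7.60 under the MCD diet and was not called (-0.29 ± 0.18, limma adjusted p = 0.412). The transporter gene Slc47a1 had the most negative difference of the list, -0.63 ± 0.22, also without a call (limma adjusted p = 0.155). Hypusination is the use of spermidine to modify a translation factor. Among 7 measured genes of it and of other polyamine steps, 4 stood at an unadjusted limma p under 0.05, against 24.2% of all genes. Of these, 3 were higher, the hypusination genes Dhps (0.58), Eif5a2 (0.57) and Eif5a (0.36), none of them called, while Dohh was at -0.005. Above the median normal diet signal lie 5 of the 7. By the adjusted threshold 0 of the 7 rose and 1 fell, beside 9.98% of all genes and 18.1% of brighter genes called. That gene was Agmat, whose enzyme can make putrescine from agmatine (fell by 0.69 ± 0.12, limma adjusted p = 0.0225). Its call was lost without any 1 array (limma adjusted p = 0.0580 to 0.107).

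Genes around the supply of ornithine and S-adenosylmethionine were read next. Of 7 genes that supply or use arginine and ornithine, the source of putrescine, 2 fell and 0 rose, and 6 of the 7 differences were negative. Of the 7, 6 had a normal diet signal above the median, beside 18.1% of brighter genes called. An unadjusted limma p under 0.05 was reached by 6 of the 7, 1 of them higher, against 24.2% of all genes. Otc, the transcarbamylase that uses ornithine in the urea cycle, went from 10.23 and 10.24 on the normal diet to 8.30 and 8.46 on the MCD diet. It fell by 1.85 ± 0.12 (limma adjusted p = 0.00109). Asl, the lyase that yields arginine, fell by 1.61 ± 0.14 (limma adjusted p = 0.00253), and both calls held without each array in turn. The next list held 9 measured genes of the methionine cycle and transsulfuration, only some of which make or use S-adenosylmethionine. Of these 9 genes 3 fell and 0 rose. Above the median normal diet signal lie 8 of the 9, and 18.1% of brighter genes were called. An unadjusted limma p under 0.05 was reached by 4 of the 9, 1 of them higher, against 24.2% of all genes. Mat1a, which makes it in hepatocytes, read 11.21 and 11.36 under the normal diet against 11.32 and 11.32 under the MCD diet, with overlapping arrays and a difference of 0.03 ± 0.12 (limma adjusted p = 0.913). Gnmt, the methyltransferase that disposes of surplus S-adenosylmethionine, fell by 1.03 ± 0.16 (limma adjusted p = 0.0132; 0.0604 without normal diet replicate 1). Cbs and Ahcy fell by 0.85 ± 0.14 and 0.80 ± 0.17 (limma adjusted p = 0.0178 and 0.0394). The call of Cbs was kept only without normal diet replicate 2 and that of Ahcy only without MCD diet replicate 1, among the 4 fits that leave an array out.

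**Figure D4:**
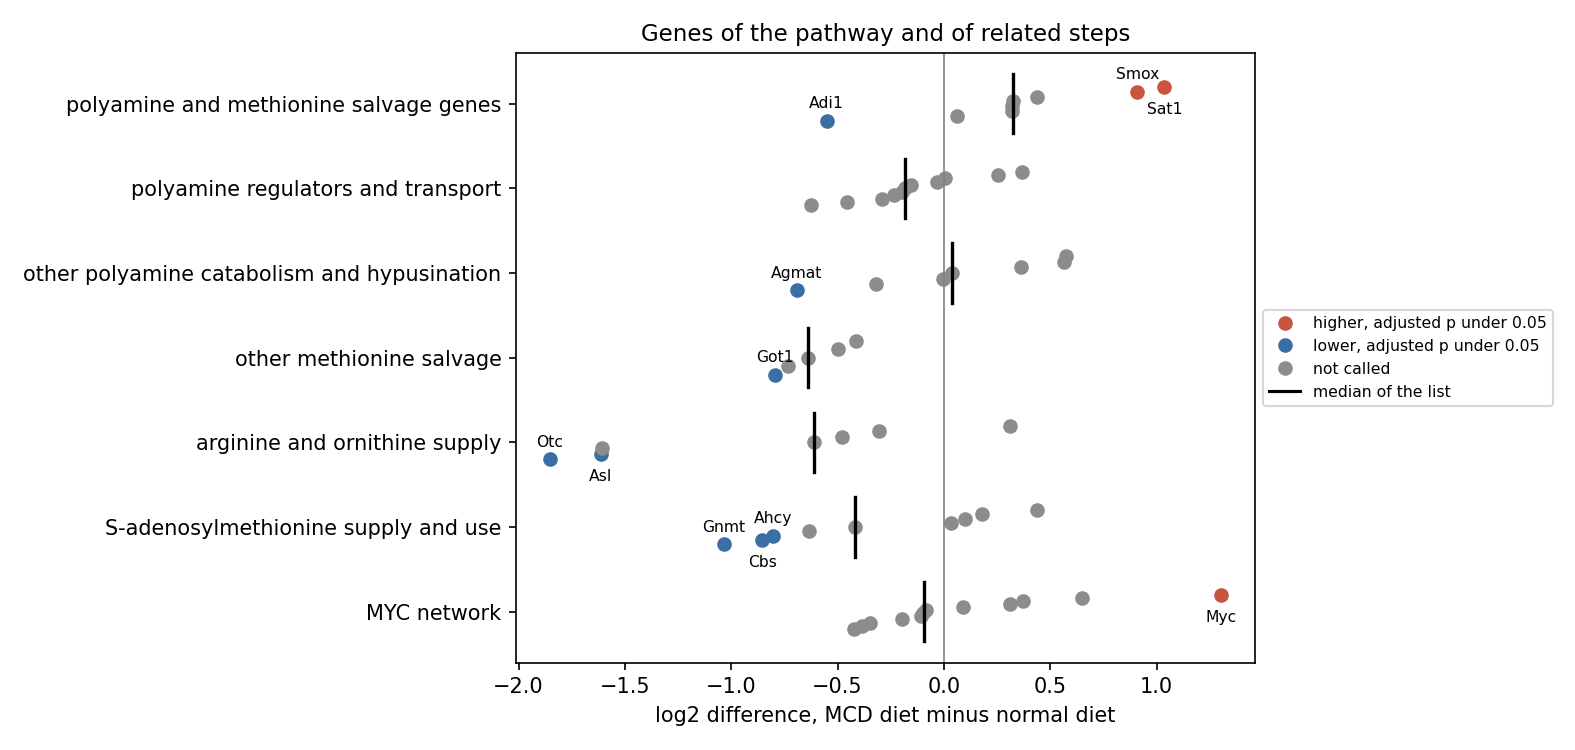
Log2 difference between the diets (x axis) for the 8 measured genes and for the 6 companion lists (y axis), each point a gene and each black line a median; points are spread vertically for legibility. Calls among the companion genes are 7 lower (Agmat, Got1, Otc, Asl, Gnmt, Cbs and Ahcy) and 1 higher (Myc).

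Odc1 and Srm are textbook targets of the transcription factor MYC, so the MYC network was read as well. Of its 12 measured genes 1 rose, Myc itself, and 0 fell, beside 9.98% of all genes and 18.1% of brighter genes called. Above the median normal diet signal lie 9 of the 12. Myc had signals of 4.35 and 4.62 under the normal diet against 5.76 and 5.82 under the MCD diet. The diets were far apart, and the rise of 1.30 ± 0.14 (limma adjusted p = 0.00422) held without each array in turn (limma adjusted p = 0.0128 to 0.0255). Its size is set beside 0.32 for Odc1 and 0.33 for Srm, neither of them called.

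Markers of other cell types moved with the diet, and in whole liver RNA a change in the number of cells of a type and a change in RNA per cell cannot be told apart. The counts below stand beside 6.37% of all genes called higher and 3.62% called lower. Of 12 macrophage markers 8 rose and 1 fell, led by Gpnmb and Trem2 (7.33 ± 0.20 and 3.47 ± 0.22). Their summed signal on the linear scale was 417 to 441 on the normal diet arrays and 1892 to 2662 on the MCD diet arrays. Of 5 measured cholangiocyte markers 5 rose, though only 2 of them, Epcam and Sox9, lay above the median normal diet signal. Of 10 stellate cell and fibroblast markers 5 rose, including Lum and Pdgfrb. The summed signals went from 39.4 to 46.0 up to 149 to 156 for the first and from 255 to 317 up to 504 to 590 for the second. Markers of dividing cells rose in 3 of 9, with summed signals of 131 to 145 against 198 to 209. The hepatocyte markers gave 0 higher and 1 lower of 9, Apoa1, with summed signals of 20351 to 20642 against 19448 to 19652. Endothelial markers fell in 2 of 8 and rose in 0, with summed signals of 645 to 708 against 477 to 486. Neutrophil markers rose in 1 of 8 and markers of B and plasma cells in 1 of 5. T and NK cell markers gave 0 calls of 7 in limma (3 at an unadjusted p under 0.05) and pancreatic acinar markers 0 of 6 (0 at an unadjusted p under 0.05). The part of these cell types in the rises of Sat1, Smox and Myc and in the fall of Adi1 was not tested.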

How the data were processed

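The authors deposited 1 table of log2 signals. The submitters' processing notes name Transcriptome Analysis Console, without a version or its summarization and normalization settings, which is all that the sources used here give. Labelled single-stranded cDNA from total liver RNA was hybridised, per the labels' protocols. Base 2 was inferred from the highest values, 12.07 to 12.13, which a natural logarithm of a scanner reading cannot reach, and every fold change rests on it. Arrays were already on a common scale and were used as deposited, with no filter or pseudocount.

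Of 34472 rows 23521 name 1 gene by the platform annotation. The row with the highest mean over the 4 arrays stands for a gene, which left 22180 genes. Symbols were compared with RefSeq (GRCm38.p6), which updated 0. Of 144 genes on the companion and marker lists 130 were measured; Paox, Mat2a and the other 12 were not analysed here. Groups came from the sample titles. The diets were compared over all 4 arrays with limma 3.58.1 (R 4.3.3; linear model, empirical Bayes, two-sided), Benjamini-Hochberg adjustment over all genes and a threshold of 0.05, with 6.06 total degrees of freedom. The fit was also run on simulated data of the same size (20 runs, 22180 genes). It called 48.8% of genes given a log2 change of 1 and 96.9% of genes given one of 2, and 4.78% of its calls were false. Each run changed 200 genes, fewer than the 2214 called in the data, and drew its variances from the prior of the fit. The recovery and the false share therefore hold for that setting and do not measure those of these arrays. Named genes were the 10 genes, from each companion list the called genes that differed most, up to 4 (up to 2 as values where none was called), always Oaz1, Azin1, Paox, Apip, Mat1a, Mat2a and Myc, and up to 2 called markers per cell type. The members and lists were chosen with earlier results of these data known. Alternatives were quantile normalization, median centring, an intensity trend, robust moderation, dropping the dimmest 25% or 50% of genes, all rows, mean of rows, rows naming several genes, a 2-fold threshold, a replicate block and leaving out each array. Promoter windows are those of RefSeq on the same build. All 4 value columns were used.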

Additional observations from a re-analysis of the deposited data

How the results depend on the processing

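Over the 15 alternatives, 107 of 119 values of the 8 genes kept their side of the threshold, 12 lost a call and 0 gained one; no called gene changed direction, and the differences of Srm and Mri1, never called, changed sign in 1 and 3 alternatives. Sat1 ranged from 0.82 to 1.26 and Smox from 0.80 to 1.02. Requiring a 2-fold change at an unadjusted p under 0.05 left 1 of the 8 genes (Sat1), 5 companion genes and 1155 genes in all, against 3, 8 and 2214, by its stricter construction. Leaving out each array gave 0 to 2 of the 8 genes in limma, where the fits lacking normal diet replicate 2 and MCD diet replicate 1 called 0, beside 4 and 3 genes at an unadjusted p under 0.05. It gave 1050 to 1493 genes in all, 3 to 7 companion genes (3 without normal diet replicate 1), 16 to 24 cell type markers against 27, and a median of the 8 genes of 0.198 to 0.56. With 1 array left in a diet, its spread is assumed to be that of the other diet. The replicate numbers are shared by the diets, but deviations of same-numbered arrays correlated at 0.0537 across genes, so the numbers were not taken as pairs; the replicate block called 1950 genes and 2 of the 8, losing Adi1 (limma adjusted p = 0.0645), and of the named companions it lost Ahcy (0.068) and gained Slc47a1 (0.0495). Smox falls out with the dimmest 50% of genes, so that alternative has 7 genes. Signal over background was not analysed here, which limits what dim genes such as Smox and the rows of Oaz1 and Sms can show. Recovery of 2-fold changes with 2 arrays per diet was partial in the simulation.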
